A study of Mus musculus with 2 samples.

Results

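Dense clusters of CTCF peaks are short stretches of the genome in which several CTCF binding sites were called within a few kilobases of each other. The members were chosen by the measured summit positions: a peak of the optimal set on chromosomes 1 to 19 qualified with at least 3 other summits within 5 kb to either side, and members under 10 kb apart were joined into 1 cluster. Of the 61263 optimal peaks on these chromosomes, 2595 (4.24%, 95% Wilson interval 4.08 to 4.40) were members, and they formed 920 clusters. The data are CTCF ChIP-seq, which recovers and sequences the DNA bound by CTCF, from the hindbrain of newborn mice (postnatal day 0, strain B6NCrl, sex not collected). The single group had 2 libraries, which the labels number 1 and 2 as biological replicates while naming 1 pool of pulverised hindbrains as the source of both. Differences between the libraries may thus be technical. Hindbrain tissue mixes neurons, glia and other cells, and a pool of animals gives no view of single cells or pups. The files hold peaks and no reads, so the read depth is unknown, and control libraries were not used here. No group of animals was compared with another, and members were compared with the remaining peaks of the same set.

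CTCF is a DNA-binding protein with a row of zinc fingers that reads a long, directional motif. Cohesin extruding a chromatin loop tends to stop where it meets CTCF in one orientation, so the strand of the motif matters, and loop anchors typically carry motifs that point towards each other. Arrays of neighbouring CTCF sites are known from the edges of topological domains, from imprinting control regions and from the border of the immunoglobulin heavy chain locus.

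Sequences from 4 clusters show what such arrays look like in the reference. Each is read 5′ to 3′ on the strand of its CTCF core, from the GRCm38 (mm10) assembly, as 61 bases around the core. The capitals mark the 14 bases of the best match to the CTCF core consensus. Coordinates and strand come first. First come 5 members of the chromosome 12 cluster, shown because its cores share 1 strand.
chr12:113216095-113216155, plus strand: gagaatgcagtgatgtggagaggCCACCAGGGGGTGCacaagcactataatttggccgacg
chr12:113218063-113218123, plus strand: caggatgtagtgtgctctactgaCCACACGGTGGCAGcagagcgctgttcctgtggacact
chr12:113220030-113220090, plus strand: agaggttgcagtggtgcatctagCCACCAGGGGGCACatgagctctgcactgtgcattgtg
chr12:113221385-113221445, plus strand: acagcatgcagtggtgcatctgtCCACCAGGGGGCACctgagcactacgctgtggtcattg
chr12:113222458-113222518, plus strand: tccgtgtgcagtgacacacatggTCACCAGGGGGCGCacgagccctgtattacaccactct
The next 4 come from the chromosome 10 cluster, whose cores lay on both strands.
chr10:74925413-74925473, minus strand: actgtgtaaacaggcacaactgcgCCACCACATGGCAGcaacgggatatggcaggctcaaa
chr10:74929708-74929768, minus strand: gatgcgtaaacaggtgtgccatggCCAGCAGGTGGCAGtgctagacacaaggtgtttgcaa
chr10:74937151-74937211, plus strand: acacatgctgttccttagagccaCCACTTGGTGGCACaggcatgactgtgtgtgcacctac
chr10:74939457-74939517, plus strand: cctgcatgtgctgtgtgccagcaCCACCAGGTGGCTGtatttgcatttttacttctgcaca
The following 3 lie upstream of H19, where the best match had 3 mismatches and so missed the limit of 2 used for a motif call.
chr7:142580286-142580346, minus strand: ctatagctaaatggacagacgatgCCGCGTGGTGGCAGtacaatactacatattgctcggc
chr7:142580741-142580801, minus strand: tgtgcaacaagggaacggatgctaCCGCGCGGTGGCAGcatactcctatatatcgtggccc
chr7:142582011-142582071, minus strand: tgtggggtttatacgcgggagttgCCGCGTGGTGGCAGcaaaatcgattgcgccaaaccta
The last 3 lie past the end of Rpl13, in an intron of the gene model Gm20388, where sites of a cluster resembled each other in their flanks.
chr8:123106743-123106803, plus strand: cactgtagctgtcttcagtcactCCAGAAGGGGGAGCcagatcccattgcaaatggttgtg
chr8:123108171-123108231, plus strand: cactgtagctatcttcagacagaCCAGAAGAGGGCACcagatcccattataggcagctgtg
chr8:123110058-123110118, plus strand: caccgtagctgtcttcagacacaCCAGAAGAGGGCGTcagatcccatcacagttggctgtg

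Most clusters were small. Of the 920 clusters, 291 had 1 member, 167 had 2 and 66 had 3, because the neighbours that qualified a member need not qualify themselves. A further 1580 peaks lay within 5 kb of a member without being one. The 396 clusters of at least 4 members held 1772 of the 2595 members, and 38 clusters had 6 or more. Exactly 3 other summits surrounded 1911 members, 4 surrounded 534, and the most crowded members had 9. The median distance from a member to its nearest summit was 1014 bp (quartiles 605 and 1636.5), and the smallest distance between any summits on these chromosomes was 199 bp. Clusters of at least 4 members spanned 900 to 18151 bp, with a median of 4383.5 bp. These numbers follow from the rule and describe it.

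Some crowding came from peaks that touch. The intervals of 287 members (11.1%) overlapped that of a neighbour, a share not computed for other peaks. An identical interval was shared with another summit by 6 members (0.231%) and by 0.0443% of other peaks. With each chain of overlapping intervals counted once, by its strongest peak, 2164 members in 816 clusters remained by the same rule. Neighbouring members are therefore not independent observations, and the intervals given for shares cover counting error only.

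Most members were among the strongest peaks of both libraries, and their crowding was repeated less often. Among the 62686 strongest peaks of each library, 2332 members (89.9%) overlapped a peak of library 1 and 2282 (87.9%) one of library 2, with 90.6% and 88.7% over all optimal peaks as background. Such a peak was overlapped in both libraries by 2146 members (82.7%) and by 83.2% of all optimal peaks. At least 4 summits lay within 5 kb of the member in library 1 for 1802 members (69.4%) and in library 2 for 1709 (65.9%), where 3.72% and 3.59% of all optimal peaks had so many. Both libraries repeated the crowding at 1426 members (55.0%) and neither at 510 (19.7%). Both libraries also fed the pooled list from which the optimal set was drawn, so this is a description of the rule in its own data. The median member ranked 30663 by signal in library 1 and 30118 in library 2, near the 31208.5 and 31100.5 of the remaining peaks.

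Members carried a CTCF core less often than other peaks. A core, meaning a match to the 14 bp CTCF core consensus with at most 2 mismatches on either strand within 50 bp of the summit, was present at 1493 of 2595 members (57.5%, 95% Wilson interval 55.6 to 59.4). The share was 65.7% (65.3 to 66.0) among the other 58668 peaks and 65.3% over all of them. The difference was -8.12 percentage points, with a 95% Newcombe interval of -10.1 to -6.19 and, with clusters as the units, -10.4 to -5.84. With overlapping peaks counted once the shares were 61.2% and 66.2%, a difference of -4.98 points (-7.09 to -2.92). Members were lower on 18 of 19 chromosomes, and on chromosome 4 they had 65.6% against 65.5%. In windows placed 1 kb away on the left and on the right, a core occurred at 5.13% and 5.70% of members and at 2.74% and 2.87% of other peaks. The nearest summit lay at a median of 1014 bp from members and 6800 bp from other peaks. By the rule, windows beside members thus fall on a neighbouring peak more readily. Cores without a mismatch were found at 205 members (7.90%) and at 8.74% of other peaks.

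The share with a core was lower in fuller neighbourhoods, up to 4 other summits. It was 67.3% for peaks with no other summit within 5 kb, 63.8% with 1 and 62.0% with 2. Just inside the limit, at exactly 3 other summits, it was 58.8%, and at 4 it was 53.2%. At 5 other summits 58.2% of 122 members had a core, and at 6 or more 53.6% of 28, with wide intervals (49.3 to 66.6 and 35.8 to 70.5). The promoter share was 16.8% with no other summit, 29.4% with 2, 31.7% with 3 and 38.2% with 4. At 5 other summits it was 30.3% (22.9 to 39.0), and at 6 or more 14.3% (5.70 to 31.5). Across the limit the median signal hardly moved, at 77.4 with 2 other summits and 75.2 with 3.

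**Figure D1:**
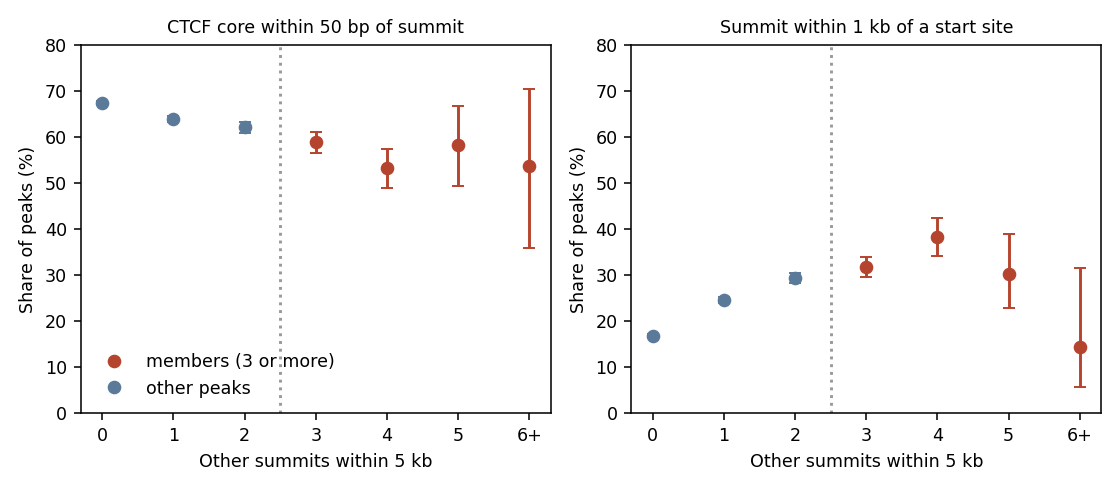
Share of peaks with a CTCF core within 50 bp of the summit (left, %) and with the summit within 1 kb of a start site (right, %), by the number of other summits within 5 kb, with 95% Wilson intervals as bars. The dotted line marks the membership limit of 3. The core share went from 67.3% with no other summit to 53.2% with 4, and the promoter share from 16.8% to 38.2%, with 30.3% at 5 and 14.3% at 6 or more.

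The signal value, the caller's own measure of peak strength in the pooled reads, had a median of 74.6 in members and 73.8 in other peaks. It differed by sequence: members with a core had a median of 128 (other peaks 111) and members without one 43.4 (other peaks 43.6). When all peaks were split by signal into 5 bins of equal size, members had fewer cores in the lower 4. In the weakest bin 29.0% of members had a core against 42.0% of other peaks, and the difference was -13.0 points (-16.7 to -9.01). In the next to strongest bin the shares were 69.4% and 78.3%. In the strongest bin they were 88.0% and 89.2%, a difference of -1.19 points with an interval that spans 0 (-4.19 to 1.32).

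The core share of members was lower in each class of position, most so at promoters. Members within 1 kb of a start site had a core in 38.9% of cases against 46.9% for other promoter peaks (difference -8.04 points, -11.4 to -4.61). In introns the difference was -3.81 points (-7.29 to -0.471) and between genes -3.38 points (-6.74 to -0.210). In exons it was -6.11 points with an interval of -13.5 to 0.884. These intervals take each peak as a unit, so the deficit away from promoters is uncertain. They were not computed with clusters as units or with overlapping peaks counted once. Edge peaks, the non-members within 5 kb of a member, had a core in 63.4% of cases, between members and the rest.

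**Figure D2:**
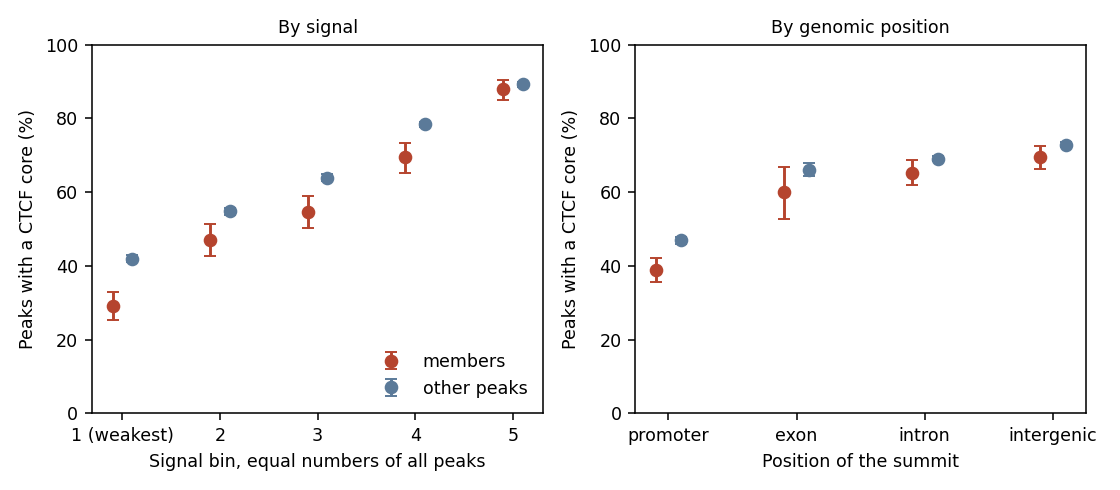
Share of members and of other peaks with a CTCF core (%), by 5 equal bins of signal over all optimal peaks on chromosomes 1 to 19 (left) and by the position of the summit (right), with 95% Wilson intervals as bars. Members lay below the other peaks in the weakest bin (29.0% against 42.0%) and close to them in the strongest (88.0% against 89.2%).

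Neither the core deficit nor the promoter excess appeared when strong peaks alone were counted. With the rule applied to the 31343 strongest optimal peaks, 318 peaks in 136 clusters met it. Of these 80.5% had a core against 80.1% of the other strong peaks, a difference of 0.411 points (-4.32 to 4.42). Their promoter share was 18.6%, like that of the other strong peaks, with a difference of -0.0939 points (-4.01 to 4.57). Among the original members split at the median signal, by contrast, the stronger ones still had a core less often than other strong peaks (75.1% against 80.3%) and lay at promoters more often (26.1% against 18.3%). Below the median the core shares were 39.9% and 51.0%, and the promoter shares 39.6% and 22.8%.

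Members lay close to gene starts. At 851 members the summit was no more than 1 kb from an annotated start (32.8%, 31.0 to 34.6), compared with 20.6% of other peaks and 21.1% over all optimal peaks. The difference was 12.2 points (10.4 to 14.1, or 9.73 to 14.7 with clusters as units), and members were higher on all 19 chromosomes. The start of a protein-coding gene lay within 5 kb of 60.5% of members and 34.5% of other peaks. Introns held 29.6% of members against 40.7%, exons 7.13% against 5.15%, and the space between genes 30.4% against 33.6%.

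Base composition followed the same division. Over 500 bp to each side of the summit the median GC content was 51.1% in members and 46.7% in other peaks. The median ratio of observed to expected CpG dinucleotides was 0.303 against 0.231. At promoters the members' ratio was 0.575 and that of other peaks 0.532, and between genes 0.238 against 0.208. The peaks were also placed against repeats: the summit base was soft-masked in the reference at 411 members (15.8%), at 18.6% of other peaks and at 18.5% of all peaks. Soft-masked members had a core more often, in 77.4% of cases, than members in unmasked sequence, with 53.8%, a split not computed for other peaks.

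Clusters differed in how many of their members had a core. In the 396 clusters of at least 4 members the strongest member carried a core in 291 (73.5%) and the weakest in 140 (35.4%), and core share was higher at higher signal over all peaks too. Every member had a core in 61 of these clusters, none had in 20, and 315 were mixed. The 258 members of the all-core clusters had a median signal of 157, 11.6% lay at promoters, and their CpG ratio was 0.249. The 90 members of the clusters without a core had a median signal of 36.1, 55.6% lay at promoters, and their CpG ratio was 0.541. Soft-masked summits made up 28.7% of the first and 3.33% of the second.

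Strand order in the clusters was not detectably different from that of close pairs elsewhere. Of the motif-bearing members, 740 had their core on the plus strand, 725 on the minus strand and 28 tied between strands. Neighbouring motif-bearing members of a cluster, under 5 kb apart, gave 690 pairs. Of these 377 (54.6%) pointed the same way, 134 (19.4%) towards each other and 179 (25.9%) away from each other. Among 5533 pairs of other peaks the shares were 54.9%, 19.5% and 25.6%. The difference in same-strand pairs was -0.287 points (-4.24 to 3.62). Convergent pairs under 1 kb made up 27.0% in members and 22.6% in other peaks, a difference of 4.41 points (-1.92 to 11.4). Between 1 and 2 kb they made up 13.4% and 17.5%, a difference of -4.14 points (-8.42 to 1.11). Each of these intervals spans 0. Of the 82 clusters with at least 4 stranded cores, 16 (19.5%) had them all on 1 strand, a share not computed for runs of other peaks.

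**Figure D3:**
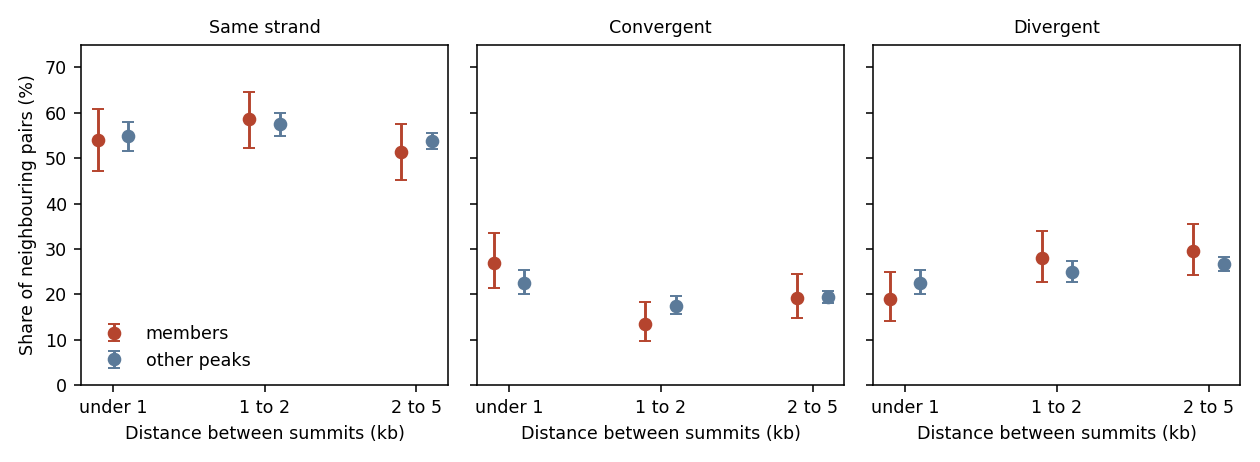
Share of neighbouring motif-bearing pairs (%) on the same strand, convergent and divergent, by the distance between their summits (kb), for pairs of members within a cluster and pairs of other peaks, with 95% Wilson intervals as bars. The intervals of members and other peaks overlap at each distance.

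A run of sites on chromosome 12 was the most compact of the 3 clusters of 10 members. At chr12:113216124-113224425, 10 members lay in 8301 bp, between Tmem121 (26601 bp to the left) and Igha (30405 bp to the right), the constant region gene of the immunoglobulin A heavy chain. Igha is on the minus strand, so the cluster lies beyond its 3′ end, where a border of CTCF sites is known. All summits were intergenic, and the one gene within 5 kb was the small nuclear RNA gene model Gm25622. A core was present at 9 members: 8 on the plus strand, none on the minus strand and 1 tied. The strongest member, at 113218089, had a signal of 452 in the pooled list, 257 in library 1 (rank 835) and 195 in library 2 (rank 1088). The weakest, at 113224425, had 50.2 in the pooled list and ranked 37692 and 44620. Summits at 113222261 and 113222460 share 1 peak interval and match the same peak in each library, at ranks 6807 and 9805. Cores at 113220059 and 113221431 were the same 14 bases, CCACCAGGGGGCAC, as the printed sequences show. The crowding was repeated in both libraries for all 10 members.

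The cluster on chromosome 10 was as large and had no gene within 5 kb. Its 10 members spanned chr10:74925448-74940992, with Rsph14, which encodes a radial spoke protein of cilia, 16485 bp to the right and Pcdh15 275711 bp to the left. A core was present at 9 members, 4 on the plus and 5 on the minus strand. The first member had a pooled signal of 307 and ranked 5683 in library 1 and 8838 in library 2. The member at 74937193 had 291 and ranked 8949 and 7327. The weakest, at 74928808, had 41.7 and ranked 44500 and 43233, and its summit base was soft-masked. All 10 members were among the 62686 strongest peaks of both libraries.

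The third cluster of 10 members ran across Fbxo6, Fbxo44 and Fbxo2, genes of F-box proteins, the substrate-binding parts of ubiquitin ligases (chr4:148155214-148172949). A core was present at 6 members, 5 of them on the plus strand. The strongest site, at 148170973, had a pooled signal of 425 and ranked 1023 in library 1 and 2657 in library 2. The last 2 summits, 148172727 and 148172949, had signals of 16.2 and 8.87. Both matched 1 weak peak of each library, ranked 85612 and 181304. The cluster's size therefore counted sites of very unequal strength.

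**Figure D4:**
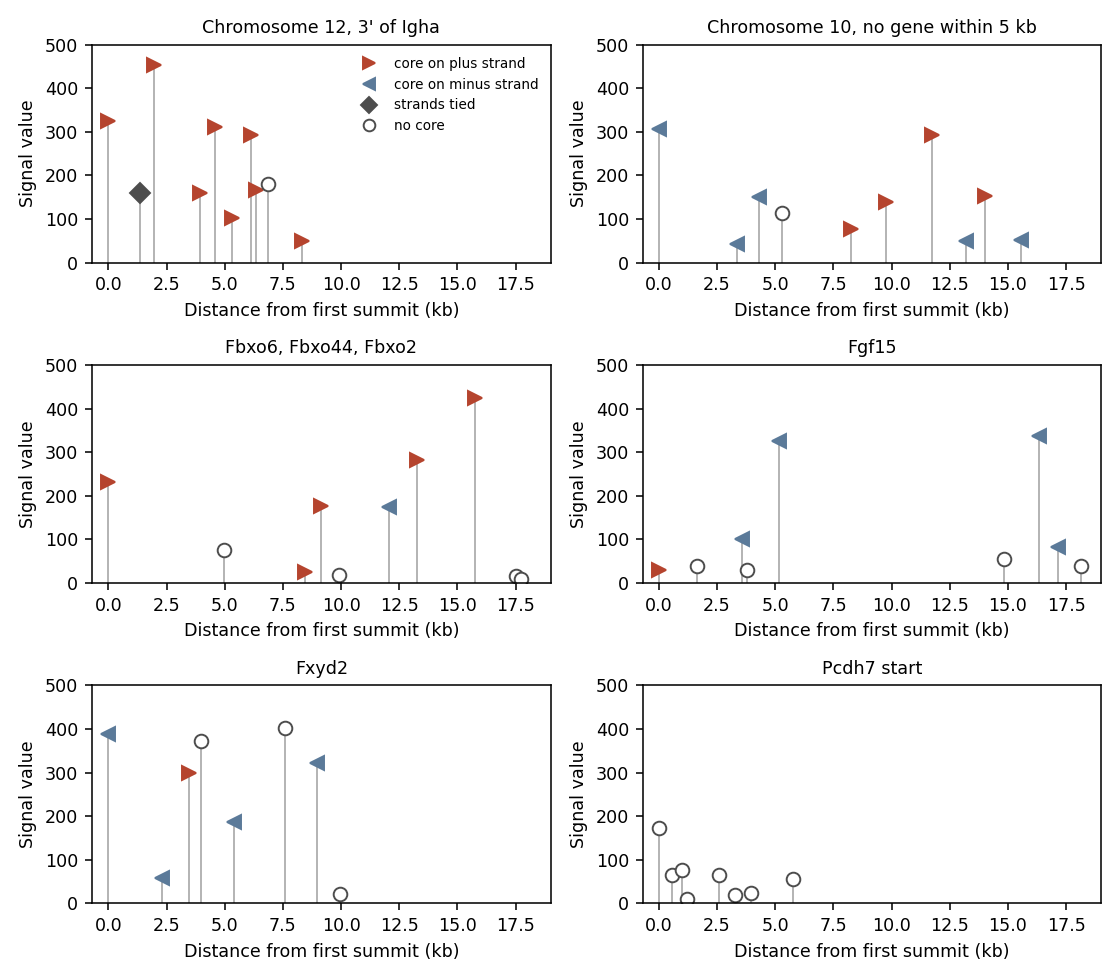
Signal value of each member (vertical axis, caller's own scale) against its distance from the first summit of the cluster (kb) in 6 of the largest clusters. Triangles point along the strand of the CTCF core, diamonds mark cores tied between strands and open circles members without a core. In the chromosome 12 cluster the 8 stranded cores point right, and none of the 8 members at Pcdh7 has a core.

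The cluster at Fgf15, which encodes a secreted growth factor, held 9 members over 18151 bp, the longest span of any cluster. No member lay between the summits 144896010 and 144905705, a gap just under the joining distance of 10 kb. The size and span of this cluster thus depend on that distance, and joining under 5 kb would split it. A core was present at 5, 4 of them on the minus strand. Its strongest members were an exonic site at 144907187 (pooled signal 337, ranks 4798 and 6264) and a promoter site at 144896010 (326, ranks 6981 and 5090). At Fxyd2, the gamma subunit of the sodium pump, 8 members spanned 9947 bp and 5 had a core. The strongest of them, at 45416085, had a signal of 402 and ranked 2243 and 2249 without a core within the mismatch limit. At Rbfox3, which encodes the neuronal nuclear marker NeuN, 7 intronic members spanned 6729 bp, with 5 cores and a strongest signal of 449.5 (ranks 936 and 1193).

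Other large clusters had few cores. At Pcdh7, a protocadherin gene outside the protocadherin clusters, 8 members in 5747 bp (chr5:57714110-57719857) had no core. Of these summits 3 lay within 1 kb of a start, the median CpG ratio was 0.638, and the signals ran from 8.77 to 172. The strongest ranked 18111 and 16219 in the libraries. At Socs3, an inhibitor of cytokine signalling, 2 of 7 members had a core, and 1 promoter site with a signal of 379.9 (ranks 4018 and 2517) stood over neighbours of 7.91 to 58.6. In neither library did the top-ranked peaks repeat that crowding. At Proser3, Hspb6, Lin37 and Psenen (chr7:30552582-30563825) none of 6 members had a core, 5 lay at promoters, and the highest signal was 46.9. The crowding there was not repeated in either library. At Hrh1, the histamine H1 receptor gene, 1 of 6 members had a core.

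Clusters in which each member had a core looked different. The 3 largest lay at Cebpb and Tmem189 on chromosome 2, between Arhgef19 and Epha2 on chromosome 4, and beside Scarb1, the high-density lipoprotein receptor gene, on chromosome 5, each with 6 cores of 6 members and 4 of them on the minus strand. In the Scarb1 cluster, 3350 bp from the gene, 3 sites in introns of the gene model Gm32585 had signals of 453, 432 and 429 and ranked 903, 1028 and 770 in library 1 and 985, 2259 and 2636 in library 2. Its other members were weaker, down to 26.9. Cebpb, a transcription factor gene, starts 3580 bp beyond the last summit of its cluster.

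The strongest member of all lay in an intron of Pink1, the kinase that marks damaged mitochondria, at chr4:138319528-138319886. Its pooled signal of 636 was the seventh largest on chromosomes 1 to 19, and it ranked 7 in library 1 (359) and 20 in library 2 (282). Its 3 fellow members had signals of 353, 122 and 49.1. Next came a site on chromosome 6 without a gene within 5 kb (595, ranks 27 and 43). After it came an intergenic site without a protein-coding gene within 5 kb (594, ranks 15 and 54), the one of the 10 strongest members that had no core. An intergenic site in the cluster between Tmbim6, an inhibitor of cell death, and Nckap5l had 578 (ranks 69 and 45). It was the last summit of that cluster, with Nckap5l 5300 bp to its right, while Tmbim6 lay 1953 bp to the left of the first summit. Sites in Gse1 (560.0, ranks 23 and 183), Ksr2, a scaffold of the Ras pathway (549, ranks 112 and 119), and Gng7, a G protein subunit (543, ranks 63 and 207), were also among the 10 strongest. So were sites on chromosome 11 (552, ranks 53 and 175) and in the cluster at Stac3 and Ndufa4l2 (551, ranks 123 and 80). In the Ksr2 cluster the 4 members had cores on the plus strand, with signals of 200.7, 93.9, 549 and 353.

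Few pairs of members within a cluster were alike by the 12-base words they shared. Of 3605 pairs of members within a cluster, 2 shared at least 20% of the distinct 12-base words within 100 bp to each side of the summit. One pair lay in introns of 1110017D15Rik on chromosome 4, at summits 41505435 and 41506368, with signals of 61.4 and 160.5. The sites are printed on the minus strand to show how closely they match, and their best cores had 3 mismatches.
chr4:41505410-41505470, minus strand: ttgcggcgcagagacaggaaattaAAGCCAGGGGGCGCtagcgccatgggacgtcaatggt
chr4:41506329-41506389, minus strand: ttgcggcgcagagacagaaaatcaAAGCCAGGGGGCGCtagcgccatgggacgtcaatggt
The first pair shared 51.1% of its words. The other pair lay beside Mylip, which encodes a ubiquitin ligase, at summits 204 bp apart with intervals that overlap, and shared 27.5%. The summits 123106771 and 123108205 past Rpl13, whose sites are printed above, shared 11.1% and missed the limit. Less similar copies can thus go uncounted by this measure. The same 14-base core recurred within 12 of the 410 clusters with at least 2 motif-bearing members.

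Likeness in the flanks was low in most clusters. Over the 20 bases on each side of the core, aligned on the core, motif-bearing members of 1 cluster were identical at a median of 27.5% of positions over 1232 pairs, the same as the 27.5% over 2926 pairs from adjacent clusters. At least 50% identity was found in 3.57% of the first and 2.15% of the second. The chromosome 12 cluster had a median of 35.0% over 36 pairs and a maximum of 72.5%, and the chromosome 10 cluster 30% and 65%. The Rpl13 cluster had a median of 36.25% over 10 pairs, with a maximum of 80%. Another cluster had the same median over 10 pairs, and pairs from adjacent clusters reached a maximum of 85%. The sites compared were chosen after the sequences were seen.

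The most frequent cores lay mostly in soft-masked sequence. The 1493 motif-bearing members had 921 distinct cores, and 722 of these occurred once among them. The core CCAGAAGAGGGCAT was the most frequent, at 76 members in 72 clusters, 69 of them soft-masked. It made up 5.09% of the motif-bearing members and 5.44% of other motif-bearing peaks. CCAGAAGAGGGCAC followed with 48 members, 45 of them soft-masked, and a median signal of 51.5. By contrast CCACCAGGGGGCAG was found at 16 members, 2 of them soft-masked, with a median signal of 340.2. Rodent genomes are known for short interspersed repeats that carry a CTCF site, but the repeat families of these sites were not read here.

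Genes near clusters were counted on lists of gene families. Of the protein-coding genes, 1002 of 20780 (4.82%) lay within 5 kb of a cluster, and 740 of the 920 clusters had such a gene. Cytosolic ribosomal protein genes, the structural parts of the ribosome, numbered 11 of 79 (13.9%, 7.96 to 23.2) at 10 clusters, among them Rpl13, Rps15, Rpl38 and Rpl3. Just past Rpl13, 5 of 5 members, in an intron of Gm20388, had a core, and the strongest, at 123110855, had a signal of 258 with ranks 8171 and 13018. At Rpl38 2 of 5 members had a core, and the strongest, a promoter site at 114668482, had 362 with ranks 3769 and 4175. At Rps15 2 of 6 members had a core.

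Imprinted genes, which are expressed from 1 parental copy, numbered 7 of 53 (13.2%, 6.55 to 24.8) at 5 clusters. These were H19, Gnas and Nespas, Peg3 and Usp29, Mest, and Asb4. The list includes noncoding genes, and its clusters share genes, so its share is set beside the 4.82% of coding genes as a description. Upstream of H19, the noncoding RNA gene whose control region binds CTCF on the maternal copy, 5 members spanned chr7:142579266-142582016. Their pooled signals were 78.3, 153, 179, 165 and 80.8, and the strongest ranked 18007 in library 1 and 14825 in library 2. One of the 5 had a core within the limit, and the best matches of 3 others had 3 mismatches, as printed above. All 5 overlapped a peak among the 62686 strongest of library 1 and of library 2. Over all optimal peaks, 90.6% did so in library 1 and 88.7% in library 2. The summits at 142581817 and 142582016 matched the same peak of library 2, at rank 19685. At Peg3, an imprinted zinc finger gene, 4 members had signals from 39.3 to 122, and 3 had a core. At Gnas, which encodes a stimulatory G protein subunit, 2 promoter members had signals of 53.4 and 24.9.

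Families known for dense gene arrays were set beside the 4.82% of all protein-coding genes. None of 39 Hox genes, the patterning genes of the body axis, lay within 5 kb of a cluster, a share of 0% with an upper Wilson limit of 8.97%. None of 34 major histocompatibility genes did (upper limit 10.2%), so both limits include the share of all coding genes. Of the olfactory and vomeronasal receptor genes 1 of 1455 (0.0687%, 0.0121 to 0.388) did, Olfr750, which is below that share. Of 439 zinc finger genes 16 (3.64%, 2.26 to 5.84) were near 14 clusters. Of 67 replication-dependent histone genes 3 (4.48%, 1.53 to 12.4), Hist1h1t, Hist1h2bc and Hist1h4c, shared 1 cluster of 4 members. Both shares are near that of all coding genes. The 17 of 56 clustered protocadherin genes counted were all gamma genes, overlapping or within 5 kb of 1 cluster of a single member. That member had a signal of 107 and ranked 25129 and 24200. None of 17 cohesin and CTCF factor genes was near a cluster (upper limit 18.4%), and this limit too includes the share of all coding genes.

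Regulators of the hindbrain and cerebellum numbered 3 of 53 (5.66%, 1.93 to 15.4), near the 4.82% of all protein-coding genes. Nfix, a factor of neural progenitors, lay at a cluster of 4 members with signals of 319, 47.9, 244 and 421, of which 3 had a core. The same cluster also overlapped Lyl1 and lay 122 bp from Trmt1, and which gene each site serves was not tested. Irx5, an Iroquois homeobox gene, lay at 2 intronic members with a core. Gli1, a target and effector of sonic hedgehog signalling, lay at a single member with a signal of 27.9 that ranked 57193 in library 1 and 77480 in library 2. Values at the clusters near these genes therefore ranged from strong sites to one near the weaker end of the set.

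Clusters were spread unevenly over the chromosomes. Members made up between 2.95% of the peaks of chromosome 18 and 5.96% of those of chromosome 7. Clusters per megabase ran from 0.206 (exact Poisson interval 0.142 to 0.290) on chromosome 3 to 0.721 (0.578 to 0.888) on chromosome 11, which also had the most peaks per megabase, 37.1 against 18.7 on chromosome 3. Within the clusters of at least 4 members, 222 of 396 also held summits of the pooled list that did not reach the optimal set. Over all clusters there were 521 such summits, with a median of 1 and a maximum of 7 in the clusters of at least 4 members.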

How the data were processed

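All files were peak lists on mm10 in the narrowPeak layout, and no source used here gives the authors' aligner, peak caller or IDR threshold. Per the labels and file descriptions, the authors made a list of 300000 peaks from each library, a pooled list of 251251, and from these the conservative (59979) and optimal (62686) IDR sets. The deposited signal value, a score whose scale no source states, served to order and describe peaks inside 1 list and was not compared between lists. The deposited −log10 q value was not used. The authors' summit offset in bp gave each summit.

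Membership, clusters and library overlap (at least 1 bp) were computed in Python 3.11.15 with numpy 2.4.6, pandas 2.3.3 and scipy 1.17.1, and the rule and motif scan were tested on simulated data. Sequence came from the GRCm38.p6 RefSeq assembly and positions from GENCODE vM21. Peaks were classed by summit as promoter (within 1 kb of any annotated start), exon, intron or intergenic. Shares have 95% Wilson intervals and differences Newcombe intervals, or intervals with clusters as units. No test was made, because members were chosen on the same data, and the depth is unknown.

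The clusters named were drawn from the 10 with the most members, the 3 of at least 6 members with the largest and the 3 with the smallest core share, those with the most alike pairs (2 had any), up to 3 per gene list and those of the 10 strongest members. Not all of these clusters are described above. The members and lists were chosen with earlier results of these data known. Flank identity and the counting of overlapping peaks once were added after seeing the data. Alternatives were other peak sets, each library alone, other neighbour limits, windows, joining distances, motif settings and promoter widths.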

Additional observations from a re-analysis of the deposited data

How the results depend on the processing

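The number of members and clusters followed the limit: 9082 and 3238 with at least 2 other summits, 684 and 230 with at least 4, 834 and 345 within 3 kb, 8659 and 2452 within 10 kb, and 318 and 136 among the 31343 strongest peaks. With 1 library set aside, the strongest peaks of the other gave 2447 to 2494 members in 892 to 904 clusters, a core difference of -6.87 to -5.62 points, a promoter difference of 11.1 to 11.6 points and a same-strand difference of -0.921 to 0.553 points. The core difference turned to 0.411 points and the promoter difference to -0.0939 points among the 31343 strongest peaks, with intervals spanning 0, and the cause was not tested; under each other alternative run both kept their direction, with an interval that leaves out 0. The core difference ran from -15.0 points with a window of 3 kb to -3.52 with 10 kb, and a limit of 1 or 3 mismatches gave -5.15 or -4.33. The promoter difference ran from 7.56 points with a window of 10 kb to 21.8 with 3 kb. The same-strand difference, whose interval spans 0, was 0.553 points without replicate 2, 2.96 with at least 4 other summits, 3.31 among the strongest peaks and 4.62 with at most 1 mismatch. Alike pairs numbered 4 at 10% of shared words and 1 at 50%. Merging summits under 150 bp apart changed nothing, since none were that close. No paired analysis was possible because there is 1 group. Read depth limits which weak sites were called, and it is unknown here.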
